A study of Homo sapiens with 41 samples.

Results

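LINC lncRNAs are long noncoding RNAs that carry no name from a neighbouring gene and received the symbol LINC and a number, the root for long intergenic noncoding RNA. They were followed here in T98G, an immortalized human glioblastoma cell line that stops dividing when growth factors are withdrawn and re-enters the cell cycle when serum is returned. A member was a gene classed as lncRNA whose symbol was LINC followed only by digits and whose mean normalised count over the 41 libraries was at least 20. Of 2232 such symbols in the count table, 1451 had at least 1 count, 355 passed the filter on low counts and 151 were members, all of which passed that filter. These 151 genes carried 150 symbols, because LINC01605 belonged to 2 Ensembl identifiers, and they made up 9.62% of the 1569 lncRNAs with a mean of at least 20. The members were chosen on their mean level, which is therefore described without a test, whereas change over time played no part in the choice. LINC00327 (mean 20.6) and LINC00342 (21.1) lay just inside the limit, and LINC02021 (19.9) and LINC01134 (19.9) just outside it.

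All cells were seeded in medium with 10% fetal calf serum, left for 24 h, and starved of serum for 72 h. The 0 min sample was then harvested without stimulation, and the other 40 samples received medium with 20% fetal calf serum and were lysed at every 10 min up to 400 min. The total RNA, after removal of rRNA, gave 1 sequencing library per time point. No time point had a replicate, so each error below is the standard error (SE) of a curve fitted through the 41 libraries and reflects their spread about that curve. Because all samples came from 1 cell line and 1 time series, the p-values do not describe the variation between independent cultures.

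lncRNAs are transcribed by RNA polymerase II, and most are spliced and polyadenylated like mRNAs, but they carry no long open reading frame. Many start close to the promoter of a protein-coding gene or at an enhancer, whereas intergenic lncRNAs have a promoter of their own, often at a distance from coding genes. A few intergenic lncRNAs act on chromatin or on the expression of nearby genes, and for most no function is known. When starved cells receive serum, signalling through the MAP kinases and through SRF induces immediate early genes such as FOS and EGR1, whose promoters respond without new protein synthesis, and later genes follow once the new transcription factors have accumulated.

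Promoter sequences are shown for the early members with the largest rise and for falling members with a large fall, since these are the windows from which the described transcripts start. Each run gives 250 bases before to 50 bases after the annotated start in RefSeq (GRCh38.p14), 5′ to 3′ on the strand of the gene. Only members whose GENCODE start lay within 1000 bases of the RefSeq start are shown, a limit set after the positions were seen, and LINC00601 was added after its matches were seen. Capitals mark matches to the motifs searched below, on either strand. The windows are LINC02989 at chr11:12086621-12086920 (plus strand), LINC00702 at chr10:4243863-4244162 (minus), LINC00842 at chr10:46398112-46398411 (plus), LINC01303 at chr14:61570604-61570903 (minus), LINC00601 at chr10:126421830-126422129 (minus), LINC00920 at chr16:66408274-66408573 (plus) and LINC01619 at chr12:92142782-92143081 (minus).
LINC02989: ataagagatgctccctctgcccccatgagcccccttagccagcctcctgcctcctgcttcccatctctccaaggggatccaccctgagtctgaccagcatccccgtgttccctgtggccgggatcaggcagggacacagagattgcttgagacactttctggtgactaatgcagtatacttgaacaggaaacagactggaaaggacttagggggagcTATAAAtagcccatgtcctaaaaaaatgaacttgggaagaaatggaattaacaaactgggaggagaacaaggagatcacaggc
LINC00702: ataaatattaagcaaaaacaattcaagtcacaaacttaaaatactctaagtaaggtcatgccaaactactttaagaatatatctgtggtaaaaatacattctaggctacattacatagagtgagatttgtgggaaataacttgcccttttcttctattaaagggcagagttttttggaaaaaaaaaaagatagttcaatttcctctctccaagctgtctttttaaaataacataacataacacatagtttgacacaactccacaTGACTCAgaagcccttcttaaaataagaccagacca
LINC00842: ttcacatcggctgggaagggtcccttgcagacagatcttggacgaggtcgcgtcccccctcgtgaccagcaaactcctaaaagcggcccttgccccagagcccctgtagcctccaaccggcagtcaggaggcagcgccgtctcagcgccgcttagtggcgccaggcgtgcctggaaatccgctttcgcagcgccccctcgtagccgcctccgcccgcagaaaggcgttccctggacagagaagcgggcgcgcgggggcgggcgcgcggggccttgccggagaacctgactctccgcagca
LINC01303: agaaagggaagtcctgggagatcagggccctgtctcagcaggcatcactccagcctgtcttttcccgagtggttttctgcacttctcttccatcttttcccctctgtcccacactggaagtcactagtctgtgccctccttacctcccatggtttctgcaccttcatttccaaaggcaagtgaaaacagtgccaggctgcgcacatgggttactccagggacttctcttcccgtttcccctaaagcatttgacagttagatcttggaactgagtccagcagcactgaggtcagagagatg
LINC00601: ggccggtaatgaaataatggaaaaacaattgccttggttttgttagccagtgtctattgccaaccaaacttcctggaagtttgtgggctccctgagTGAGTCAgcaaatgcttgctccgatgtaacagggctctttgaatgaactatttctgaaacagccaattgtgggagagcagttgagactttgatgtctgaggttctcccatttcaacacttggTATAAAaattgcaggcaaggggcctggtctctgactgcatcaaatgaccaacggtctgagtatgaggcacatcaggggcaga
LINC00920: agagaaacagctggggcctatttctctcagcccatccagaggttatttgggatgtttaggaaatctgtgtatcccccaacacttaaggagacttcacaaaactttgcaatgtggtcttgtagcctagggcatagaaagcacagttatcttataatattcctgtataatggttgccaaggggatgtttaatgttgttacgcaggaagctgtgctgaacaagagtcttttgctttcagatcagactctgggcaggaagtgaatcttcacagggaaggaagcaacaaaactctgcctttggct
LINC01619: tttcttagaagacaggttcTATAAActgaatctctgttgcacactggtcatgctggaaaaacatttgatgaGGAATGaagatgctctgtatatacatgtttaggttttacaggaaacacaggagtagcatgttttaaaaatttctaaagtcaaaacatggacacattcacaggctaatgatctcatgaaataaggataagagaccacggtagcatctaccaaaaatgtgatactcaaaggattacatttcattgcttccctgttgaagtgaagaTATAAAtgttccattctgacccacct
In LINC02989, TATAAA stood at positions -33 to -28 from the RefSeq start, the usual place of a TATA box, where the general transcription machinery assembles. Its GENCODE start lies 20 bases further downstream, so the match is more distant from that start, and the placement depends on the start used. LINC00601 held TATAAA at -32 to -27 and the AP-1 motif TGANTCA, which FOS and JUN dimers bind, at -154 to -148. LINC00702 held the AP-1 motif at positions 15 to 21 of the transcript. The windows of LINC00842, LINC01303 and LINC00920 held none of the 8 motifs. LINC01619, a falling member, held GGAATG, the TEAD motif, at -179 to -174, and TATAAA at -231 to -226 and again at 25 to 30.

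The serum response was present in these libraries. The normalised count of FOS was 238 at 0 min and 16477 at 30 min, EGR1 was 359 and 4832, and JUN was 2742 and 9769. All 16 early response genes of the list used as a check were higher than at 0 min at 30 min and at 60 min (edgeR quasi-likelihood test, Benjamini-Hochberg adjusted p below 0.01). Of the glial and glioma markers, VIM (mean 50048) and CD44 (23721) were abundant, NES (38.3) and OLIG2 (34.0) were low, and GFAP, S100B, AQP4, ALDH1L1 and SOX2 had means of 1.66 or less. Of the markers of other cell types, CD3E, CDH1, KRT5 and RBFOX3 had means of 0.228 or less, and PTPRC (3.36), CDH5 (3.83), SYT1 (6.11), PECAM1 (11.5), EPCAM (11.6) and VWF (18.7) were low. CD68 (1745) and the neuronal gene SNAP25 (570.1) were clearly expressed, and their part in the results was not tested. Library totals ran from 18206982 counts at 20 min to 64948114 at 70 min with a median of 41773419, and the members together took 0.0425% to 0.0538% of the counts of a library.

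Most LINC lncRNAs changed over the 400 min, as did most genes, and falls outnumbered rises at the end of the course. Of the 151 members, 130 changed over the course (edgeR F test of all spline terms, adjusted p below 0.01), which is 86.1%, against 75.5% of all 21629 genes tested. An autocorrelated profile by the Ljung-Box test at lag 1 was found for 111 (73.5%), against 60.9%. Over the 16318 tested genes with a mean of at least 20, the limit that members also met, these shares were 85.9% and 72.0%, close to those of the members. At 400 min 29 members (19.2%) were higher than at 0 min and 61 (40.4%) were lower, where 24.2% and 22.4% of all tested genes were called. The median log2 change of the members at 400 min was -0.47, beside -0.0042 over all genes tested and 0.05 over protein-coding genes with a mean of at least 20. A lower total in bulk RNA can come from fewer cells that hold a transcript or from less of it per cell, which cannot be told apart here.

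The calls accumulated with time. At 30 min 4 members (2.65%) were higher, beside 1.71% of all tested genes, and 2 (1.32%) were lower, beside 0.342%. For the other lncRNAs with a mean of at least 20 these shares were 2.61% and 1.2%, close to those of the members. At 60 min 9 members (5.96%) were higher, beside 5.15% of all tested genes and 6.49% of other lncRNAs. Another 9 (5.96%) were lower, beside 1.23% and 3.95%. At 120 min 28 members (18.5%) were higher and 19 (12.6%) lower, beside 13.6% and 6.75% of all tested genes. At 240 min 36 (23.8%) were higher and 48 (31.8%) lower, beside 21.6% and 18.5%. For other lncRNAs the shares were 11.8% and 12.6% at 120 min, and 16.4% and 29.3% at 240 min. Grouped by their calls, 9 members were early (higher at 30 or 60 min), 29 late (higher at 240 or 400 min and not early), 65 falling (lower at 240 or 400 min and neither early nor late) and 48 other. These are 5.96%, 19.2%, 43.0% and 31.8% of members, beside 5.42%, 22.5%, 24.6% and 47.5% of all tested genes and 6.81%, 27.9%, 27.7% and 37.5% of those with a mean of at least 20. A fitted rise of at least 2 on the log2 scale at any of the 5 times was called for 15 members, and a fall of at least 2 for 5. Over all tested genes the shares were 4.61% and 3.76%, and over those with a mean of at least 20 they were 4.31% and 2.08%. The latter genes had a median mean count of 479 against 56.4 for members, so the sets differ in level.

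The number of calls moved with the 0 min library, and not only at the early times. A curve fitted without it had to be extrapolated to 0 min, and then 9 members were called higher and 17 lower at 400 min, and 2 higher at 60 min (edgeR adjusted p below 0.01). When the baseline was instead the curve at 10 min, again without the 0 min library, 32 rose and 59 fell by 400 min, near the 29 and 61 above, and 6 rose and 3 fell by 60 min. Size factors from the spike-in sequences gave 22 higher and 39 lower at 400 min.

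**Figure D1:**
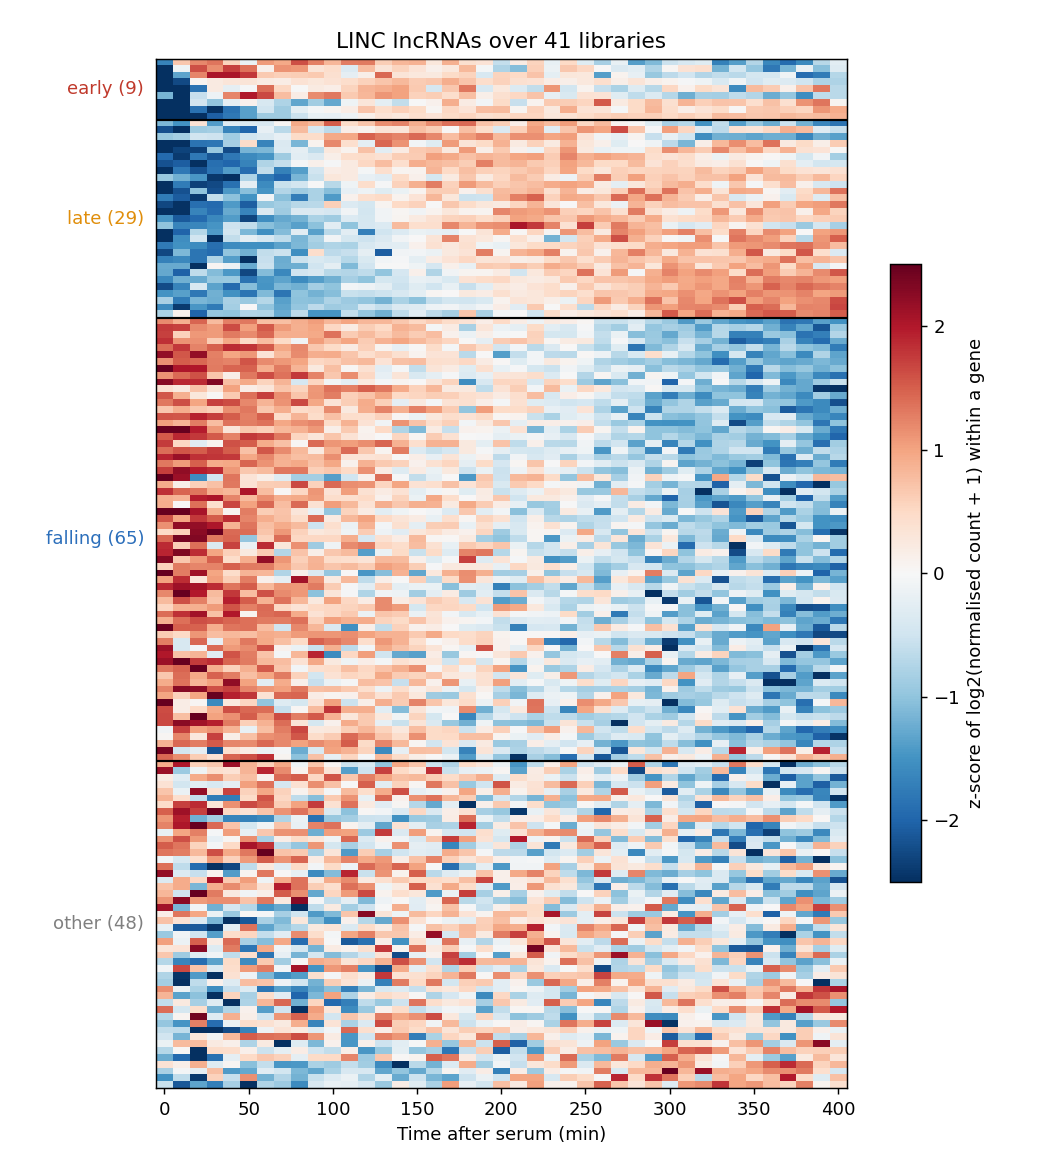
Heat map of all 151 members (rows) in the 41 libraries (columns, time after serum in min), with each row shown as the z-score of log2(normalised count + 1). Rows are grouped as early (9), late (29), falling (65) and other (48), early and late rows ordered by the time of their midpoint and the others by their log2 change at 400 min, and the falling block is the tallest.

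The share of members called was set beside that of other transcript classes with a mean of at least 20. At 400 min 19.2% of members were higher and 40.4% lower, against 14.9% and 34.6% of the 1418 other lncRNAs. Among the 189 lncRNAs named for a divergent transcript (symbols ending in -DT), 6.35% were higher and 48.1% lower, and among the 336 antisense lncRNAs (-AS), 9.82% and 44.6%. Of 12693 protein-coding genes, 33.5% were higher and 26.5% lower. These shares are descriptions, and no difference between classes was tested. They also rest on unequal precision, since the median SE of the log2 change at 400 min was 0.24 for members and 0.24 for other lncRNAs but 0.12 for protein-coding genes, whose median mean count was 700.0 against 56.4 for members.

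**Figure D2:**
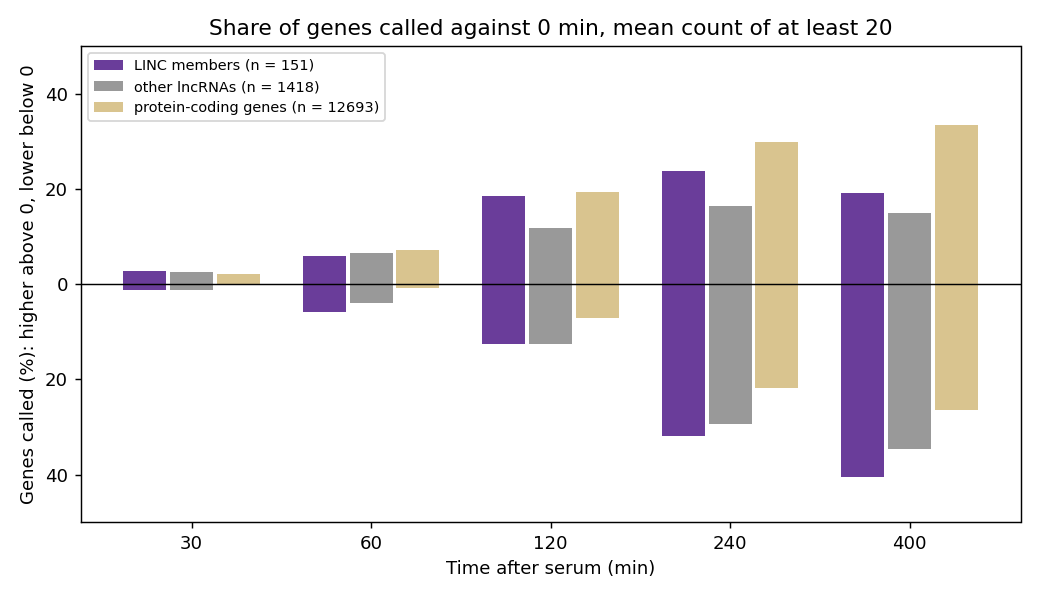
Bars give the percentage of genes called higher (above 0) or lower (below 0) than at 0 min at 5 times, for the 151 members, the 1418 other lncRNAs and the 12693 protein-coding genes with a mean of at least 20. At 400 min the bars of the members reach 19.2% upward and 40.4% downward.

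The largest early rise was that of LINC02989, a gene of 2 exons on chromosome 11 (chr11:12086891-12089441, plus strand) that starts 7.12 kb from the start of MICAL2. Its normalised count ranged from 3.11 to 223 with a median of 142 over the 41 libraries. From 3.11 before serum it reached 27.0 after 10 min, 128 after 20 min and 141 after 30 min. The 0 min library was the lowest of the course, the highest came at 170 min, and 73.5 remained at 400 min. The fitted log2 change was 5.30 ± 0.35 (SE, n = 41 libraries) at 30 min (edgeR adjusted p = 4.93e-16), and 5.45 ± 0.29 at 120 min. The size of this change depended on the curve. It was 1.54 at 30 min with evenly spaced knots, 3.25 with 5 degrees of freedom and 3.26 with windows of time, each past the threshold. The 0 min library held only 3 reads of it. The ratio of the 30 min library to the 0 min library was 45.4, with an exact 95% interval of 15.2 to 223 that covers counting error only. Against the curve at 10 min, without the 0 min library, the log2 change at 30 min was 2.40 and still past the threshold.

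LINC01348, LINC00601 and LINC01303 were also higher at 30 min, at lower levels. The 0 min library held 4 reads of LINC01348 and 13 of LINC01303. Neither of these genes passed the threshold at 30 min against the curve at 10 min, without the 0 min library. LINC01348 (chr1:235064927-235074220, minus strand) had 4.15 normalised counts at 0 min, 22.5 at 10 min and its highest value of 48.8 at 40 min, with a median of 24.9. Its fitted log2 change was 3.06 ± 0.53 at 30 min (edgeR adjusted p = 7.71e-05) and had declined to 1.42 ± 0.54 at 400 min, which did not pass the threshold (adjusted p = 0.0219). LINC00601 (chr10:126413869-126421879, minus strand), which carried the AP-1 and TATA matches shown above, ranged from 56.0 at 0 min to 133 at 40 min with a median of 93.2. It had risen by 1.28 ± 0.19 on the log2 scale at 30 min (edgeR adjusted p = 5.09e-06), and the value at 400 min was 0.48 ± 0.18. LINC01303 (chr14:61556273-61570653, minus strand) had 13.5 before serum and a highest value of 53.1 at 80 min, and its lowest value of 12.1 came at 370 min, so the end of the course overlapped its start. Its log2 change was 1.66 ± 0.38 at 30 min (edgeR adjusted p = 0.00437) and 0.32 ± 0.37 at 400 min.

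LINC00472 (chr6:71187161-71420745, minus strand), a 234 kb gene whose exons overlap the microRNA gene MIR30C2 on the same strand, was the most abundant early member, with a mean of 513. Its normalised count was 352 at 0 min, 203 at 10 min and 882 at 50 min, its highest value. The median was 516, and 406 was reached again at 400 min. The log2 change was 1.17 ± 0.19 at 60 min (edgeR adjusted p = 7.89e-06) and 0.17 ± 0.19 at 400 min (adjusted p = 0.45). LINC00324 (mean 151) rose from 94.4 at 0 min, its lowest value, to 183 at 60 min, its highest, with log2 changes of 0.79 ± 0.16 at 60 min and 0.83 ± 0.17 at 400 min.

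The other early members kept rising. LINC00842 (chr10:46398362-46453306, plus strand) had 37.3 normalised counts before serum, 33.8 after 10 min, 135 after 60 min and 556 after 400 min, with a median of 397. The 0, 10 and 20 min libraries were its lowest and the 400 min library its highest. Its log2 change was 1.71 ± 0.19 at 60 min (edgeR adjusted p = 1.18e-09) and 3.90 ± 0.18 at 400 min (adjusted p = 1.32e-23). The whole of its longest transcript has a copy of at least 98% identity elsewhere on chromosome 10, and since multi-mapping reads were counted for every gene they touched, its counts may hold reads of that copy. LINC00702 (chr10:4201141-4243912, minus strand) went from 3.11 at 0 min to 47.6 at 260 min with a median of 25.2, and its log2 change was 2.29 ± 0.58 at 60 min (edgeR adjusted p = 0.00512). It also started from 3 reads, and the ratio of its 60 min library to the 0 min library was 6.0, with an exact 95% counting interval of 1.75 to 31.8. LINC02595 rose from 12.4 at 0 min to 79.6 at 390 min, with a log2 change of 1.27 ± 0.31 at 60 min and 2.46 ± 0.29 at 400 min.

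Not all early calls held under other settings. With evenly spaced knots, LINC01348 (0.93 at 30 min), LINC01303 (0.46 at 30 min) and LINC00702 (1.48 at 60 min) did not pass the threshold, and LINC01303 also missed it with 5 degrees of freedom (0.76) and with windows of time (0.77). LINC00601 passed with 0.53 at 30 min under evenly spaced knots. Against the curve at 10 min, without the 0 min library, LINC00842 (1.84 on the log2 scale at 60 min), LINC00472 (1.74 at 60 min) and LINC00601 (0.92 at 30 min) stayed past the threshold. LINC01348 (0.96 at 30 min), LINC00702 (1.29 at 60 min), LINC01303 (0.33 at 30 min) and LINC02595 (1.02 at 60 min) did not. The early members were on 7 chromosomes. Their times of highest running mean lay between 30 and 390 min, with 4 of the 9 at or before 100 min and 3 at or after 300 min.

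**Figure D3:**
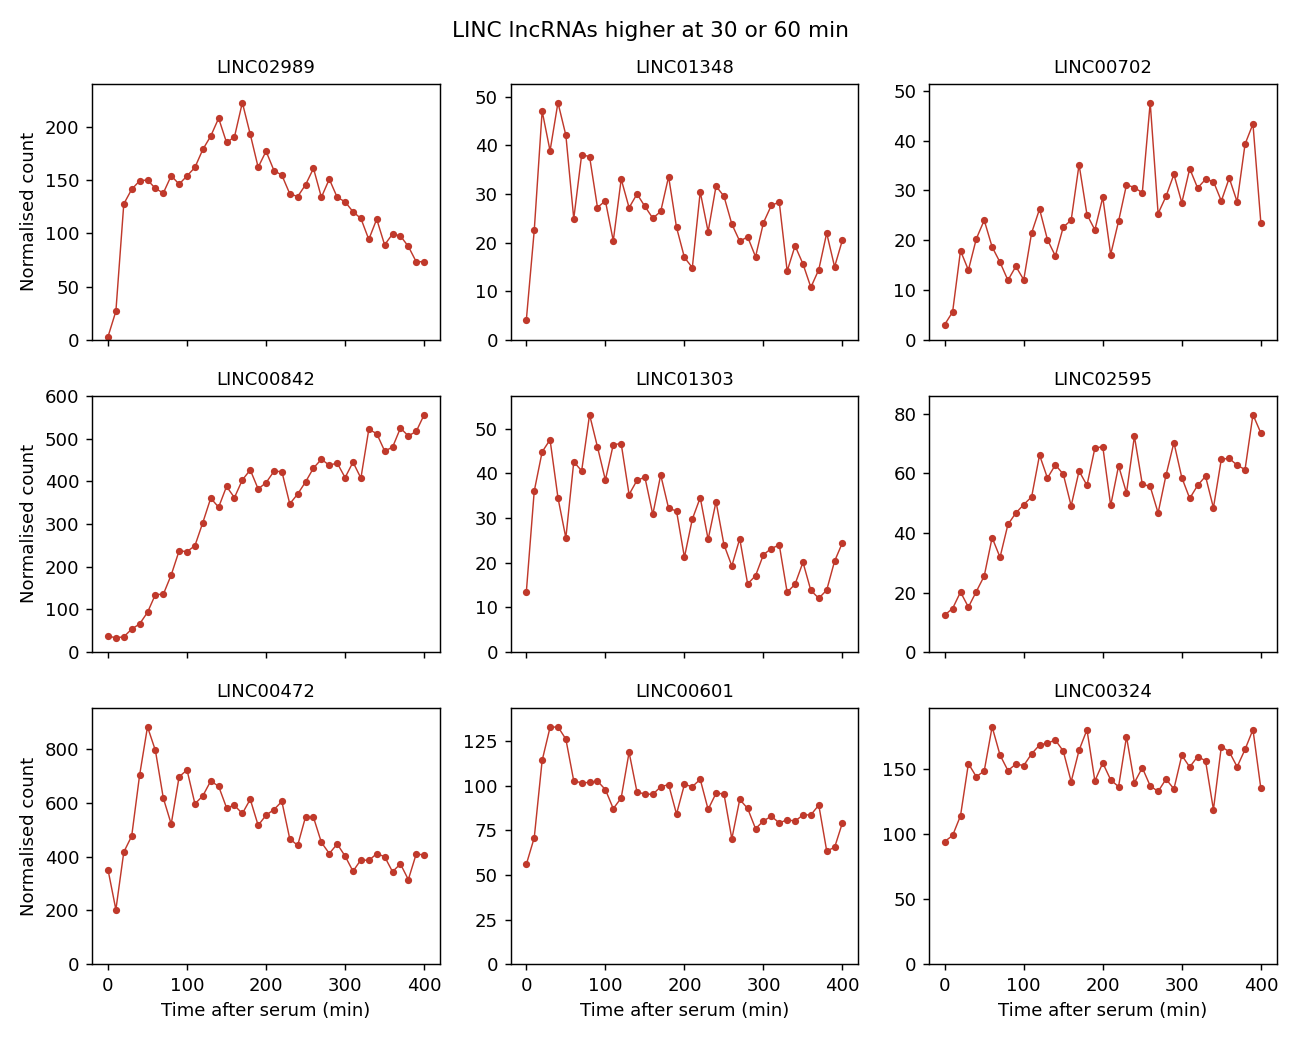
Normalised count (y axis, from 0, own scale per panel) against time after serum (min) for the 9 members higher at 30 or 60 min, with 1 point per library. LINC02989 and LINC01348 had left their 0 min values by 20 min, whereas LINC00842 climbed up to 400 min.

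Late members were defined by calls at 240 or 400 min and by none at 30 or 60 min, so their later timing follows from the grouping. As a description, their midpoints, the time of passing halfway to the peak, ran from 68.0 to 285 min, and 16 of the 29 reached their highest running mean at or after 300 min. LINC01226 (chr1:31506226-31583306, plus strand) had 1.04 normalised counts at 0 min and 3.38 at 10 min, with a median of 26.5 and a highest value of 41.3 at 350 min. Its log2 change was 4.22 ± 0.62 at 240 min (edgeR adjusted p = 1.77e-07), and 3.16 against 10 min without the 0 min library. The 0 min library held 1 read, and the ratio of the 240 min library to it was 39.3, with an exact 95% counting interval of 6.66 to 1591.

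LINC01638 on chromosome 22 (chr22:27221349-27225134, minus strand) ranged from 0 at 50 min to 91.6 at 370 min with a median of 37.0, and had risen by 3.84 ± 0.53 on the log2 scale at 400 min (edgeR adjusted p = 2.63e-08). Of the identifiers of LINC01605 on chromosome 8, ENSG00000253161 (mean 123) ranged from 19.3 at 70 min to 266 at 350 min and changed by 3.24 ± 0.26 at 400 min (edgeR adjusted p = 5.02e-15). The other identifier, ENSG00000253414 (mean 44.4), changed by 2.15 ± 0.39 at 400 min. The former passed its midpoint at 235 min and the latter at 89.4 min, so the annotated parts of this locus did not share a time course. LINC01583 went from 4.50 at 10 min to 49.0 at 400 min, a log2 change of 3.14 ± 0.45.

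Some late members had passed their peak before the end. LINC01500 (chr14:58646631-59184247, plus strand), which overlaps DACT1 on the same strand, ranged from 6.72 at 20 min to 120 at 190 min with a median of 66.4. Its log2 change was 2.89 ± 0.30 at 240 min (edgeR adjusted p = 2.99e-11) and 1.82 ± 0.35 at 400 min. LINC02593, a gene of 1 exon on chromosome 1 (chr1:916865-921016, minus strand), ranged from 171 at 10 min to 634 at 240 min with a median of 461, and had risen by 1.54 ± 0.12 at 240 min (edgeR adjusted p = 6.36e-15). LINC00511, the fourth most abundant member and a gene of 350 kb that has been studied in several tumours, rose from 573 at 0 min to 994 at 120 min and returned to 491 at 380 min. Its log2 change was 0.72 ± 0.10 at 120 min (edgeR adjusted p = 2.2e-07) and -0.21 ± 0.11 at 400 min, which did not pass the threshold. LINC00973 (2.07 ± 0.20 at 240 min) and LINC00941 (2.37 ± 0.20 at 400 min) also rose, though 92.3% of the exon length of LINC00941 is shared with ENSG00000285517 on the same strand, so reads there were counted for both.

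The falling members formed the most numerous group. Of these 65, 48 were lower at 240 min and 61 at 400 min, and 40 had a fitted log2 change of -1 or less at 400 min. The grouping rests on these falls. LINC01915 (chr18:24534551-24708542, plus strand) fell furthest. It had 138 normalised counts at 0 min and 168 at 20 min, its highest value, a median of 66.0, and a lowest value of 13.3 at 370 min. Its log2 change was -0.33 ± 0.19 at 120 min, -1.40 ± 0.19 at 240 min and -3.38 ± 0.26 at 400 min (edgeR adjusted p = 2.08e-15), so that most of the loss came after 120 min.

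LINC03044 on chromosome 8 fell earlier. It ranged from 60.2 at 0 min to 5.31 at 390 min with a median of 20.2, and its log2 change was -1.11 ± 0.24 at 120 min and -2.91 ± 0.31 at 400 min (edgeR adjusted p = 4.95e-11). LINC00920 (chr16:66408516-66412135, plus strand) ranged from 141 at 0 min to 16.2 at 380 min with a median of 50.3, and changed by -2.62 ± 0.27 at 400 min (edgeR adjusted p = 2.32e-11). LINC01619 (chr12:91984976-92142914, minus strand) ranged from 150 at 0 min to 24.9 at 340 min with a median of 72.8, and changed by -0.84 ± 0.20 at 60 min and -2.44 ± 0.23 at 400 min (edgeR adjusted p = 1.08e-12). In these 3 genes the 0 min library was the highest of the course.

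LINC02606 had its highest value of 72.1 at 40 min and its lowest of 9.33 at 280 min, and it changed by -2.08 ± 0.28 at 400 min. LINC00663 (-1.99 ± 0.24), LINC01270 (-1.89 ± 0.19) and LINC01089 (-1.89 ± 0.15) followed. LINC01089 starts 0.103 kb from SETD1B, a histone H3 lysine 4 methyltransferase, on the opposite strand, and 41.7% of its exon length is shared with RHOF, so its values include reads counted for RHOF as well. It was among the first to fall, with 286 normalised counts before serum, 241 after 10 min and 163 after 60 min, and a log2 change of -0.63 ± 0.14 at 60 min (edgeR adjusted p = 0.00118). All 8 of these falls were past the threshold also against 10 min without the 0 min library, with log2 changes from -3.18 for LINC01915 to -1.67 for LINC01089, and with -1.75 for LINC00920, the one that moved most.

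**Figure D4:**
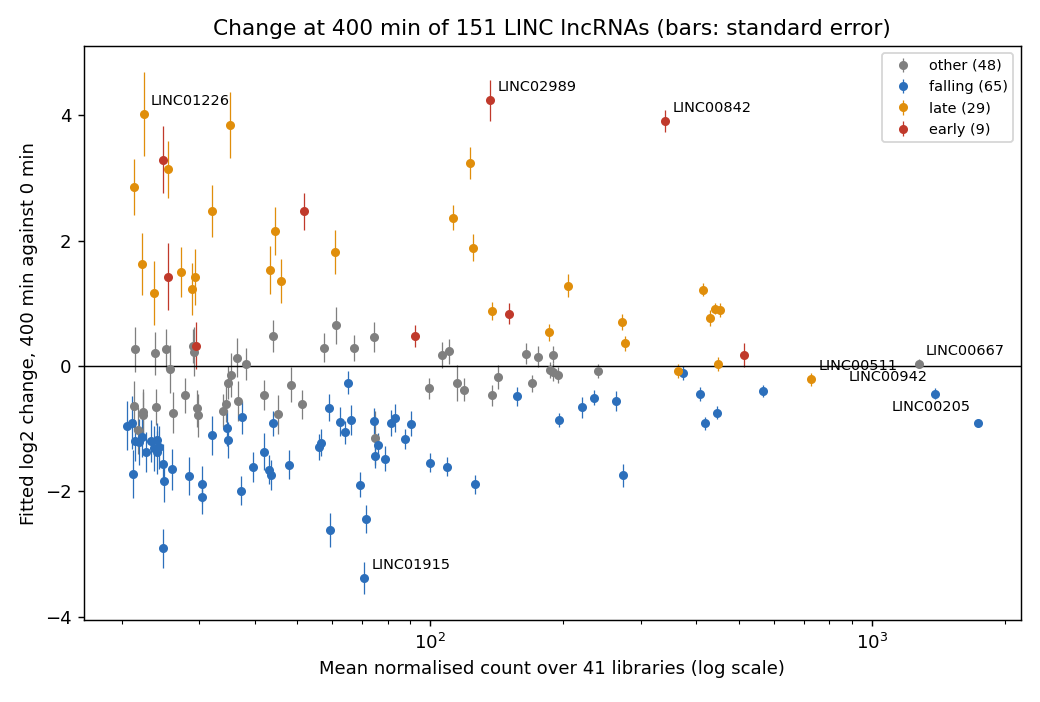
Fitted log2 change at 400 min against 0 min (y axis, bars are SE) against the mean normalised count (x axis, log scale) for the 151 members, coloured by group. The members with the highest mean, LINC00205, LINC00942 and LINC00667, changed by -0.91 to 0.03, and LINC01915 lies lowest at -3.38.

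LINC00205, LINC00942 and LINC00667 had the highest means and together held 21.3% of the summed mean counts of the 151 members. Per kb of exon, the mean was 227 normalised counts for LINC00205, 627 for LINC00942 and 126 for LINC00667, where the members ranged from 1.67 to 627 with a median of 15.7. LINC00205 (mean 1735, chr21:45288035-45297806, plus strand) ranged from 1008 at 390 min to 2208 at 110 min with a median of 1759, and its log2 change was -0.19 ± 0.06 at 240 min and -0.91 ± 0.06 at 400 min (edgeR adjusted p = 2.46e-17). LINC00942 (mean 1385, chr12:1500525-1504424, plus strand) ranged from 951 at 400 min to 1766 at 30 min and changed by -0.44 ± 0.09 at 400 min (edgeR adjusted p = 6.86e-05). LINC00667 (mean 1275, chr18:5237826-5290608, plus strand) stayed between 1073 and 1431, with a log2 change of 0.03 ± 0.07 at 400 min (edgeR adjusted p = 0.721), though it passed the test of any change over the course (adjusted p = 1.24e-05). LINC01116, a lncRNA of the HOXD region, changed by -0.40 ± 0.10 at 400 min.

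A set of 11 members was lower at 30 or 60 min, 6 of which stayed low and were classed as falling. The other 5 were LINC01355, LINC00641, LINC00896, LINC01311 and LINC01424, named here after their values were seen, except LINC01424. LINC01355 had 206 normalised counts before serum, 44.5 after 80 min and 155 after 400 min, with log2 changes of -1.43 ± 0.30 at 60 min (edgeR adjusted p = 0.000582) and -0.27 ± 0.29 at 400 min. Its reads were 199 at 0 min and already 69 at 10 min, in libraries of similar size factor. Much of its fall thus lay between the single 0 min library and the next one. LINC00641 had 222 before serum, its lowest value of 114 after 60 min and its highest of 271 after 400 min. LINC01311 was shortest in its dip, with 34.5 at 30 min, its lowest value, and 161 at 110 min, its highest. LINC01424, which starts 0.057 kb from UBE2G2, a ubiquitin-conjugating enzyme, on the opposite strand, had 39.4 before serum, 11.9 after 30 min and 40.3 after 140 min, with a log2 change of -1.54 ± 0.36 at 30 min (edgeR adjusted p = 0.00619). Against 10 min and without the 0 min library the change of LINC01424 was -0.87, and with evenly spaced knots it was -0.56. Neither passed the threshold.

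The study asked how lncRNA expression relates in time to adjacent coding genes, and each member was therefore set beside the protein-coding gene with the nearest start. All values here are exon counts, which follow mature transcripts and can trail induction. The intron reads on which the study timed induction are not analysed here, so r and the midpoints below do not show the order in which genes were switched on. The 151 members had 139 distinct neighbours. The median Pearson's r of normalised counts over the 41 libraries was 0.25, with quartiles of -0.31 and 0.65, and 93 of 151 were positive. It was 0.27 for the other 1418 lncRNAs. By distance, the median r was 0.44 for the 25 members within 10 kb, 0.23 for the 63 at 10 to 100 kb and 0.23 for the 63 beyond 100 kb, and 0.26, 0.30 and 0.30 for other lncRNAs. An r over 0.7 was found for 26 members (17.2%) and for 21.4% of other lncRNAs. By distance, in the same order, this share was 12%, 22.2% and 14.3% of members, so it was not highest within 10 kb. Both genes of a pair were read from the same libraries with the same size factors, so r is a description. It fell to a median of 0.11 when differences between neighbouring time points were correlated, and rose to 0.49 with spike-in size factors. From differences, the median was 0.089 within 10 kb, 0.095 at 10 to 100 kb and 0.123 beyond 100 kb.

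The closest match was LINC01500 with DACT1, an antagonist of Wnt signalling whose start lies 12.7 kb away on the same strand (r = 0.96). DACT1 went from 60.2 normalised counts at 0 min to 780 at 220 min, and passed its midpoint at 84.5 min against 101 min for LINC01500. Since 5.55% of the exon length of LINC01500 is shared with DACT1, some reads counted for both. DACT1 had the higher mean count, 471 against 60.7, so the share of LINC01500 reads that fall there can exceed 5.55%. What such reads add to this r was not tested. LINC02593 and SAMD11, which start 2.91 kb apart and point away from each other, had r = 0.89, with midpoints at 91.3 and 85.6 min. SAMD11 rose from 40.5 at 0 min to 785 at 190 min, a log2 change of 3.78 ± 0.23 at 240 min, beside 1.54 ± 0.12 for LINC02593. LINC01226 and TINAGL1, a secreted matrix glycoprotein, had r = 0.90 with starts 70.3 kb apart on the same strand, and TINAGL1 rose by 3.35 ± 0.33 at 240 min. TINAGL1 starts inside the span of LINC01226, so any read over exons of both was counted for each. The part of such reads in this r was not tested.

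Other pairs parted. MICAL2, an actin-oxidising enzyme that promotes SRF-dependent transcription, went from 870.4 normalised counts at 0 min to 14411 at 380 min and had changed by 0.18 ± 0.10 on the log2 scale at 30 min, when its neighbour LINC02989 had already risen by 5.30. Their midpoints in exon counts were 187 and 22.4 min, and r was -0.22. LINC02606 fell while SLC25A33, a mitochondrial nucleotide carrier whose start lies 98.9 kb away, rose from 281 to 759 normalised counts (r = -0.90). LINC00942 fell by 0.44 at 400 min while WNT5B, a Wnt ligand with its start 29.4 kb away, rose by 1.77 ± 0.10 (r = -0.68). LINC00205 and POFUT2, a protein O-fucosyltransferase, start 0.137 kb apart on opposite strands, yet LINC00205 changed by -0.91 and POFUT2 by 0.09 ± 0.08 at 400 min (r = -0.21). LINC01619 and BTG1, an antiproliferative gene whose start lies 2.93 kb away on the same strand, both fell (r = 0.68), BTG1 by 1.49 ± 0.08 at 400 min, although BTG1 first reached its highest value of 3477 at 30 min. These genes overlap on the same strand, so any read over exons of both was counted for each, and its part in r was not tested. LINC01521 and PATZ1, a zinc finger transcription factor, which start 0.431 kb apart, both fell (r = 0.84), by 1.44 ± 0.19 and 0.55 ± 0.09.

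For 26 members that rose, the neighbour was also called higher at some time, and the midpoints of the rise could be compared. The member passed its midpoint more than 10 min before the neighbour in 14 pairs and more than 10 min after it in 11, and the median difference, member minus neighbour, was -29.2 min. Among the 11 pairs within 100 kb, 5 were earlier and 5 later. The direction of the median depended on the smoothing, because midpoints read from the fitted curve gave a median of 4.92 min.

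**Figure D5:**
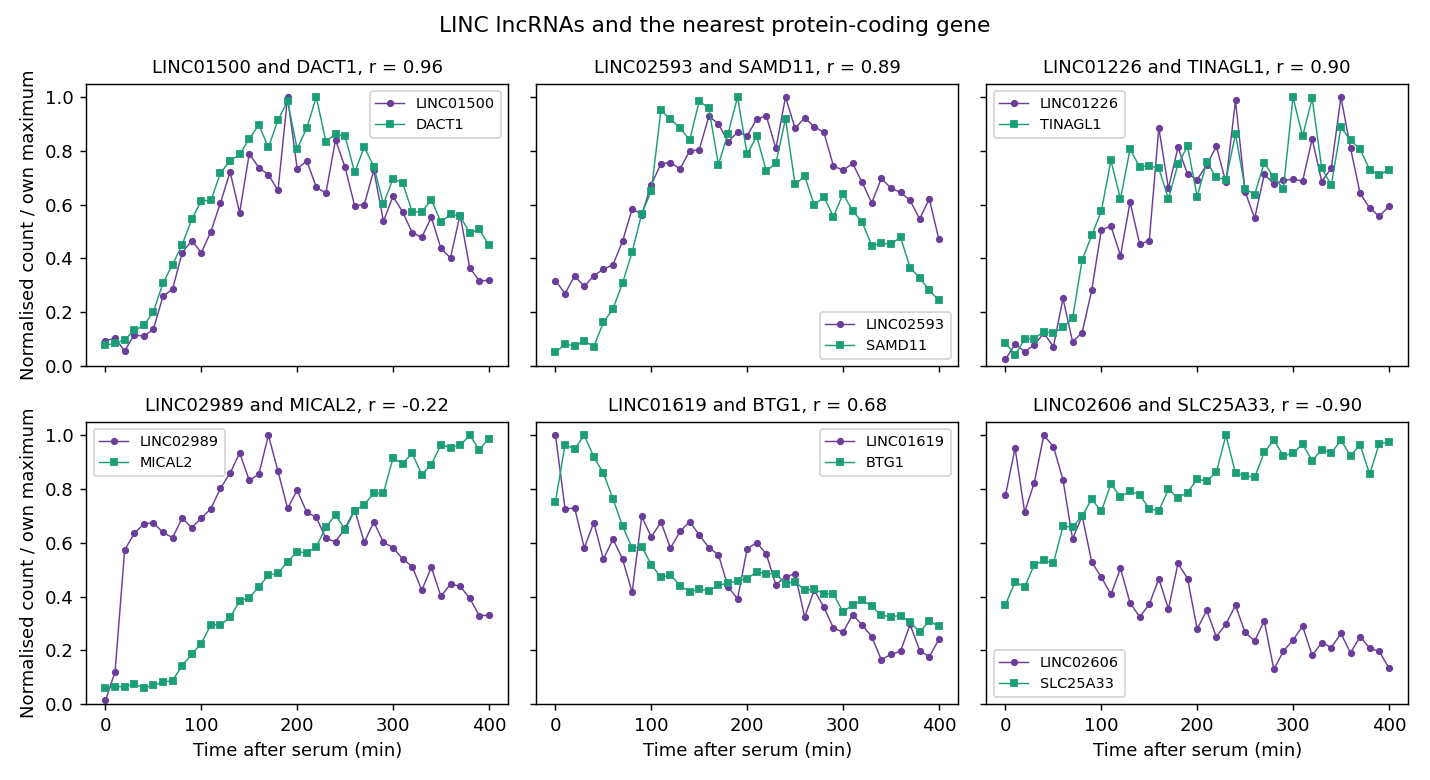
Normalised count divided by its own maximum (y axis) against time after serum (min) for 6 members and the nearest protein-coding gene, with 1 point per library and r over the 41 libraries in each title. LINC01500 and DACT1, which share part of their exons and the reads there, rise and decline together (r = 0.96). LINC02989 is at 128 normalised counts at 20 min, long before MICAL2 rises.

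The label intergenic was checked against GENCODE release 44. Of the 151 members, 129 overlapped no protein-coding gene and 22 (14.6%) did, 11 on the same strand and 12 on the opposite strand, with LINC00294 counted in both. For all lncRNAs with a mean of at least 20 the share was 65.1%. The same-strand partners include DACT1, BTG1, RHOF and TINAGL1, and those on the opposite strand include OGFRL1 (LINC00472), CAPRIN2 (LINC00941) and ZBTB14 (LINC00667). The median distance to the nearest coding start was 67.7 kb against 4.78 kb for other lncRNAs, 25 members lay within 10 kb of one, 18 of them divergent, and 63 (41.7%) lay more than 100 kb away. The median member spanned 17.0 kb with 5 merged exons and 3973 bases of exon, and 21 had 1 exon.

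Late members lay further from coding starts (median 142 kb) than falling members (47.6 kb), and 14 of the 25 members within 10 kb were falling, 3 late and 1 early. No test of this difference was made. Counts of some members are shared by construction. More than 10% of the exon length was shared with another gene on the same strand in 9 members, and 16 had a copy of at least 98% identity and 125 bases elsewhere in the genome, which covered more than 50% of the longest transcript in 15. Among members named above this touches LINC00842, LINC00941, LINC01089 and LINC01619.

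Promoters were found in RefSeq for 110 of the 151 members, and 8 motifs known from growth factor responses were searched on both strands of the 300 bases. In 82 of the 110 the GENCODE start lay within 1000 bases of the RefSeq start, and the windows of the rest were counted as well. The AP-1 motif TGANTCA was in 18 of 110 member promoters (16.4%), beside 7.76% of all 27305 promoters. Of these windows, those of LINC00963, LINC00973, LINC01002, LINC01001, LINC00513, LINC00607, LINC01358, LINC01094 and LINC01081 lay beyond that limit. The 16.4% therefore rests in part on windows away from the GENCODE start of the member, and the share among windows within the limit is not given here. CRE, TGACGTCA, was in 5 (4.55%, against 1.98%), the ETS motif CCGGAAG in 15 (13.6%, against 10.7%), TATAAA in 14 (12.7%, against 12.0%) and the E-box CACGTG in 8 (7.27%, against 7.43%). GGAATG was in 12 (10.9%, against 14.0%), the NF-kappaB motif in 6 (5.45%, against 10.8%) and the CArG box, which SRF binds, in 2 (1.82%, against 1.29%). The AP-1 motif was in 2 of 9 early, 3 of 21 late, 7 of 44 falling and 6 of 36 other promoters. The CArG matches were both in late members, LINC01444 and LINC00973, and the window of LINC00973 lay beyond the limit of 1000 bases. With only the 250 bases before the start, AP-1 was in 15 of 110 (13.6%, against 6.60%), a count that again includes windows beyond the limit. A match gives the letters only and does not show that a factor bound there.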

How the data were processed

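T98G total RNA was measured in 41 libraries, 1 per time point. Per the submitters' processing notes, the authors trimmed reads with cutadapt 1.11, aligned them to GRCh38 with STAR 2.5.2a and deposited counts per gene from featureCounts. The study's code counted reads by strand over exons of GENCODE 29, and gave a read that mapped to or overlapped several genes to each of them. The deposited signal values are these counts after division by a DESeq2 1.24.0 size factor per library, which ranged from 0.447 to 1.60. Symbols, classes and positions were taken here from GENCODE 44 on the same genome (58207 of 58721 genes matched).

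Genes with over 10 counts in 1 library and over 2 in 3 consecutive ones were tested (21629). Counts were fitted in edgeR 4.0.16 (R 4.3.3) as a natural spline of time with knots at 20, 40, 60, 100, 160 and 260 min, leaving 33 residual degrees of freedom. Contrasts of the curve (30, 60, 120, 240 and 400 min, each minus 0 min, a shared baseline) used the quasi-likelihood test and a Benjamini-Hochberg adjusted p below 0.01 over all tested genes. The SE is the log2 change divided by the root of F. Correlation, midpoints (running mean of 3 libraries) and motifs were computed in Python 3.11.15, and copies were found with minimap2 2.31. Depth limits low members: the SE at 400 min has a median of 0.24. The fit and the Ljung-Box step were tested on simulated data.

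Named members were the 5 of highest mean, the 8 of largest rise at 30 or 60 min, of largest rise at 240 or 400 min and of largest fall there among those past the threshold, those nearest the limit of 20, up to 8 changed members within 10 kb of a coding start, and coding neighbours within 100 kb. LINC00324, LINC00941, LINC00973, ENSG00000253414 and the dipping genes were named after their values were seen. The members and lists were chosen with earlier results of these data known. Alternatives were other size factors, filters, knots, libraries, tests, thresholds and scales.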

Additional observations from a re-analysis of the deposited data

How the results depend on the processing

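Counts of members called higher and lower are given for 30, 60, 120, 240 and 400 min. With spike-in size factors, the median log2 change of all tested genes at 60 min was -0.22, beside 0.01 with the size factors used above. Under spike-in factors 2, 3 and 14 members were higher at 30, 60 and 120 min, and 1, 4, 7, 23 and 39 were lower. Without the 0 min library, where the curve is extrapolated to 0 min by construction, 1, 2, 4, 7 and 9 were higher and 1, 0, 0, 8 and 17 lower. The 0 calls are from edgeR, where 7 members at 60 min and 17 at 120 min were lower at an unadjusted p under 0.05, and DESeq2 with all libraries called 9 and 21. Against 10 min, an alternative chosen after seeing the data, 3 were lower at 60 min. Among the 79 members with a mean of at least 50, 2, 17, 21 and 17 were higher and 1, 9, 26 and 33 lower at 30, 120, 240 and 400 min. Among the 49 with a mean of at least 100, 1, 4, 14, 18 and 15 were higher and 1, 4, 4, 12 and 14 lower, fewer by construction. Without the low-count filter 1 was lower at 30 min. With evenly spaced knots 5 were lower at 30 min and 30 at 120 min, and the 30 min calls were largely other genes, since 0 of the 2 lower and 2 of the 4 higher calls were shared. With every second time point, 5 were higher at 60 min, and 0, 4 and 9 were lower at 30, 60 and 120 min (edgeR; 15 at 30 min at an unadjusted p under 0.05, 3 by DESeq2 with all libraries). At a threshold of 0.05, 14 were higher at 60 min, and 8, 15 and 31 were lower at 30, 60 and 120 min. The median r with the nearest coding gene was 0.49 with spike-in factors and 0.11 from differences between time points, and the median midpoint difference turned from -29.2 to 4.92 min on the fitted curve. Where neither construction nor a value above shows it, the cause was not tested. Of 30 fitted changes of named members, 13 stayed past the threshold without the 0 min library, 24 with spike-in factors, 25 against 10 min and 26 to 30 in each other alternative, and none turned its direction. No paired analysis was possible because each time point had 1 library. Depth limits the members of low mean most.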
